A study of Homo sapiens with 6 samples.

Results

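The muscle acetylcholine receptor genes and the genes that organise the receptor at the neuromuscular synapse were examined in control and TAK1 knockdown RD cells. The group holds 10 genes, found by symbol among the 58735 rows of the count table: the receptor subunits CHRNA1, CHRNB1, CHRND, CHRNE and CHRNG, and the agrin and MuSK pathway genes AGRN, LRP4, MUSK, DOK7 and RAPSN. RD is an established human cell line derived from an embryonal rhabdomyosarcoma (ERMS), a tumour of the skeletal muscle lineage. RNA was sequenced from 3 libraries of RD cells transduced with lentivirus carrying scrambled shRNA (control) and from 3 libraries of cells carrying TAK1 shRNA, so that lentiviral transduction is common to both groups. TAK1 is a kinase encoded by MAP3K7. The RNA-seq used 1 TAK1 shRNA construct in 1 cell line, in a lentiviral vector that also carries mCherry and puromycin resistance. The labels do not say whether replicates were separate cultures, so that the p-values below measure the spread between these libraries.

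The muscle nicotinic acetylcholine receptor is a pentamer that opens when motor nerves release acetylcholine. It contains a pair of α subunits (CHRNA1) with β (CHRNB1), δ (CHRND) and either γ (CHRNG) in fetal and denervated muscle or ε (CHRNE) at the mature synapse. Agrin (AGRN) binds LRP4, which activates the receptor tyrosine kinase MuSK; DOK7 is the cytoplasmic adaptor that drives MuSK activity, and rapsyn (RAPSN) anchors receptors in dense clusters. Many of these genes are transcribed in muscle cells through E-boxes, the binding motif of MyoD and myogenin, and at the synapse through N-boxes, which bind ETS factors such as GABP.

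The stretches of 250 bases before the RefSeq transcription starts (GRCh38.p14) are shown for 4 genes that cover the outcomes described below: CHRNA1 and DOK7, which were lower in TAK1 knockdown cells, MUSK, which was higher, and CHRNE, which had almost no reads. Each is written 5′ to 3′ on the strand of its gene. Capitals mark E-boxes (CANNTG) and N-boxes (CCGGAA, read on both strands). The CHRNA1 stretch lies on the minus strand at chr2:174764473-174764722, that of MUSK on the plus strand at chr9:110668541-110668790, that of DOK7 on the plus strand at chr4:3463056-3463305 and that of CHRNE on the minus strand at chr17:4903099-4903348.
CHRNA1: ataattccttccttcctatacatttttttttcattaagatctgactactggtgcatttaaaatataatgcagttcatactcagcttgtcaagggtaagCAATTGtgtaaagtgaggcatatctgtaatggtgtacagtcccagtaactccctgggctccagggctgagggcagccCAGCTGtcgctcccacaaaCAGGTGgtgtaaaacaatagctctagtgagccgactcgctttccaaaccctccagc
MUSK: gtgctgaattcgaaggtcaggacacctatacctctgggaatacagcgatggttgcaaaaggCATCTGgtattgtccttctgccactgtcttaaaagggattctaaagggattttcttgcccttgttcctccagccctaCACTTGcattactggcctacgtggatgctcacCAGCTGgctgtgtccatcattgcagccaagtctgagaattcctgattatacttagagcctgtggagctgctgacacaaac
DOK7: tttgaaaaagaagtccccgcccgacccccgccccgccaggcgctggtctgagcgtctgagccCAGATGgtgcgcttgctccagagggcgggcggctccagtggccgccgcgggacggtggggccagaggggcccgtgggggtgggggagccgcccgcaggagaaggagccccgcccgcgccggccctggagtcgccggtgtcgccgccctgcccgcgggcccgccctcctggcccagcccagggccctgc
CHRNE: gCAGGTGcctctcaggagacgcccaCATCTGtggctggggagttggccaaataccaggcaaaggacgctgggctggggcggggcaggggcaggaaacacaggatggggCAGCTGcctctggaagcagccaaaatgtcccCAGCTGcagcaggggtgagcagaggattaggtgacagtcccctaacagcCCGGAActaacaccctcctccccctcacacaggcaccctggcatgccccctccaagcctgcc

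RefSeq windows were found for 6 of the 10 genes, 7 windows in all because DOK7 has a pair of listed starts. No entry was matched for CHRNG, RAPSN, AGRN or LRP4, and the windows of CHRND and CHRNB1 are not printed because annotated exons cover long stretches of them, for CHRNB1 those of the upstream gene FGF11. The MUSK window runs a short way past the annotated start of its gene. The windows of CHRNA1 and CHRNE, both on the minus strand, lie inside the annotated spans of their genes, which reach 174787935 and 4934438. An E-box was present in 61.8% of 35116 promoter windows of the same length, and 28.3% had at least 2. CHRNA1 and MUSK held 3 each, CHRNB1 and CHRNE held 4 each, CHRND held 1, and DOK7 held 1 at its upstream start and 0 at the other. The E-box CAGCTG, a core that MyoD and myogenin prefer and one of the E-box matches already counted, was present in 14% of all windows. It was found 75 bases before the start of CHRNA1, 80 bases before that of MUSK, and both 142 and 111 bases before that of CHRNE. The N-box, present in 14.5% of windows, was matched 66 bases before the start of CHRND and 62 bases before that of CHRNE. A match describes letters in the window and does not show binding.

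**Figure D1:**
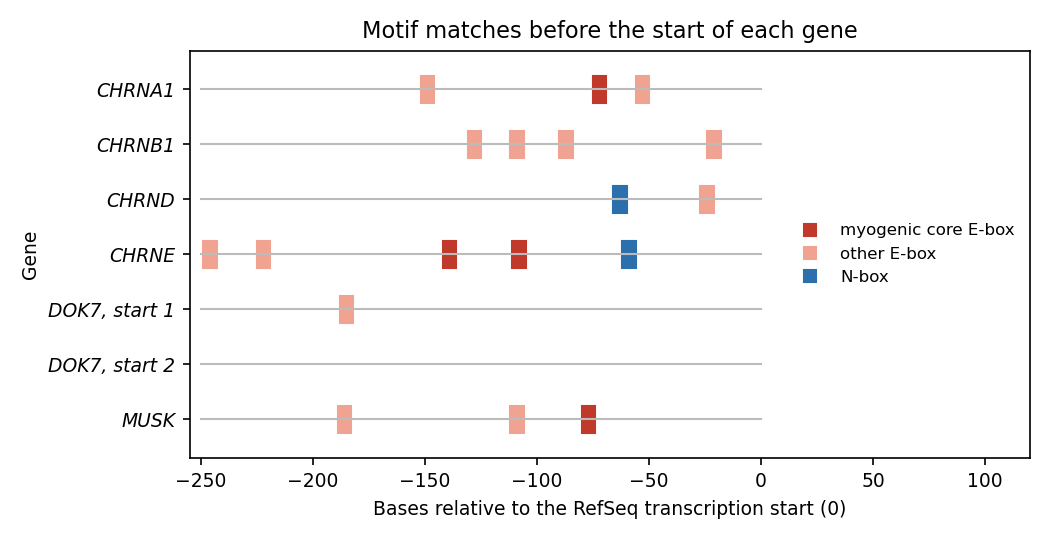
Positions of motif matches in the 250 bases before each RefSeq start, in bases relative to the start, 1 line per window, with dark red boxes for the E-box core CAGCTG, light red for other E-boxes and blue for N-boxes. CHRNA1 and MUSK carry a core E-box at 75 and 80 bases before the start, and CHRNE carries a pair of them with an N-box.

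The targeted gene and the depth were checked before the members were compared. MAP3K7 reached 77.9, 76.5 and 77.6 CPM (read counts scaled to a common, normalized library size) in control libraries 1 to 3 and 30.5, 33.6 and 29.9 CPM in knockdown libraries 1 to 3, a log2 fold change of -1.30 (edgeR adjusted p = 4.45e-14). Total counts ran from 28839898 to 34469323 per library. Of the 8 myogenic identity markers, 7 were tested and MYF5 had 0 reads in every library. Their summed level was 2019 to 2043 CPM in controls and 1949.8 to 2066 CPM in knockdown libraries, but 3 of them were called higher in knockdown cells and 1, the member CHRNA1, was called lower. CHRNA1 alone supplied a mean of 921 CPM of that sum in controls and 700 CPM in knockdown libraries. The similar sums therefore include the fall of CHRNA1 and do not show that the other markers were unchanged. MYMK, which encodes the fusion protein myomaker, was at 6.51 to 7.36 CPM in controls and 12.1 to 14.8 CPM in knockdown libraries, a log2 fold change of 0.98. The log2 fold changes of the myogenic factor genes MYOD1 and MYOG were 0.37 and 0.27. The part of these differences in the members' results was not tested. Of the 6 motor neuron markers, CHAT and SLC5A7 had 0 reads in all libraries, and the summed level of the list was 2.13 to 3.20 CPM in controls and 1.70 to 2.06 CPM in knockdown libraries. The 6 Schwann cell markers summed to 97.9 to 99.2 CPM in controls and 125 to 131 CPM in knockdown libraries. ERBB3 and MBP, which are not particular to Schwann cells, carried that sum, S100B was at 0, and SOX10 was at 0 in all libraries except control library 1, with 2 counts. The 4 fibroblast markers summed to 472 to 508 CPM and 487 to 575 CPM, almost all of it COL1A1. ERBB3 and MBP were called higher in knockdown cells, and the part of this difference in the results below was not tested.

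Of the 10 genes, 9 passed the expression filter and were tested with edgeR across 15935 genes. Differentially expressed genes were those with an adjusted p below 0.05 whose log2 fold change reached 0.25 in either direction. TAK1 knockdown cells had higher levels of 4 members, RAPSN, LRP4, CHRNG and MUSK, and lower levels of 2, CHRNA1 and DOK7, while CHRNB1, CHRND and AGRN were not called. Over all genes tested, 11.8% were called higher and 11.3% were called lower, 23.1% in either direction. The calls over all genes were 51% upward, and 62.9% upward when libraries were scaled by library size alone. The median log2 fold change was 0.12 for the 9 tested members and 0.018 for all tested genes. The control and knockdown ranges did not overlap for 7 of the 9 members, against 43.9% of all tested genes. On the adjusted p alone 7 of the 9 members passed, against 33.3% of all tested genes. At a fold threshold of 0.5, only RAPSN and LRP4 stayed called higher and 0 members were called lower, where 4.61% and 4.27% of all genes passed. DESeq2 and limma also called 0 members lower at that threshold, and 2 members were lower at an unadjusted p under 0.05 in edgeR.

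**Figure D2:**
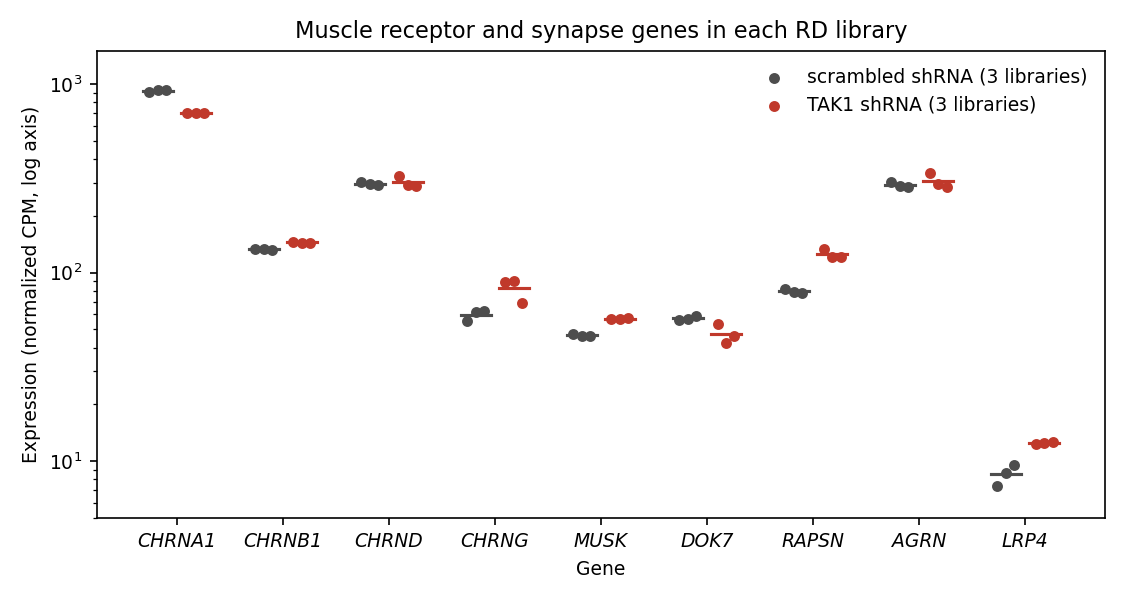
Normalized CPM (log axis) of the 9 tested genes in each library, with grey points for the 3 control libraries, red points for the 3 TAK1 knockdown libraries and a bar at each group's mean. The CHRNA1 points lie at 908 to 929 CPM in controls and 698 to 702 CPM in knockdown libraries, and CHRNE, with 0 to 3 reads per library, is not drawn.

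Among the receptor subunits, the mRNA of the ligand-binding α subunit and that of the fetal γ subunit moved in opposite directions. Protein, receptor assembly and surface receptor are not measured by these libraries. CHRNA1 (chromosome 2, 174747592 to 174787935, minus strand) stood at 908, 929 and 926 CPM in the control libraries and at 698, 701 and 702 CPM in the knockdown libraries. All 3 knockdown values lay below all 3 control values, and the spread within each group was small. The means were 921 ± 11.5 and 700.3 ± 2.33 CPM (SD, n = 3 each), which gave a log2 fold change of -0.40 (95% interval -0.48 to -0.31, edgeR adjusted p = 1.91e-08). CHRNA1 was also the most abundant member, ranked 121 of 58735 rows by mean CPM. In bulk RNA, fewer cells that express a gene and less RNA per cell cannot be told apart, and this holds for each member. An antisense transcript, ENSG00000236449, covers 3.25% of the annotated exon bases of CHRNA1.

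CHRNG encodes the γ subunit and lies on chromosome 2 from 232539692 to 232548115, 3024 bases downstream of the end of CHRND. Its level was 55.6, 61.7 and 62.2 CPM in controls and 89.6, 89.8 and 69.1 CPM in knockdown libraries 1, 2 and 3. Every knockdown library was above every control library, but knockdown library 3 lay much nearer to the controls than the other two. The group means were 59.9 ± 3.67 and 82.8 ± 11.9 CPM (SD, n = 3), and the log2 fold change was 0.47 (95% interval 0.31 to 0.62, edgeR adjusted p = 2.79e-05). Exons of TIGD1 on the opposite strand cover 66.9% of the annotated CHRNG exon bases, and since the methods do not state whether strand was used in counting, reads of the 2 genes may have been mixed or left out. TIGD1 itself was at 7.24, 7.49 and 7.52 CPM in controls and 7.69, 11.0 and 8.21 CPM in knockdown libraries, without overlap (log2 fold change 0.28, edgeR adjusted p = 0.103). Its listed level was below that of CHRNG in every library, but mixing or loss of reads would affect that level too. The part of TIGD1 reads in the CHRNG difference was not tested.

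CHRNE, the adult ε subunit, had 2, 1 and 1 reads in the controls and 2, 3 and 0 reads in the knockdown libraries, 4 and 5 in all. It did not pass the filter and no fold change is given, because both groups lay at or under 3 reads per library. Exons of MINK1, C17orf107 and GP1BA on the opposite strand cover 59.6% of its annotated exon bases, and whether reads there were left unassigned was not tested. MINK1, among these overlapping genes, was at 100.2, 108 and 99.6 CPM in controls and 136, 134 and 119 CPM in knockdown libraries. It was called higher (log2 fold change 0.33, edgeR adjusted p = 3.63e-05), and the levels of C17orf107 and GP1BA are not given here. The log2 ratio of CHRNG to CHRNE reads, with 0.5 added to each count, was 9.99 ± 0.59 in controls and 10.67 ± 1.29 in knockdown libraries (SD, n = 3), and the exact two-sided permutation test gave p = 0.6, where 0.1 is the smallest p that 3 against 3 allows. The test could therefore not have passed 0.05 whatever the ratio, which rests on at most 3 CHRNE reads per library.

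CHRNB1, the β subunit, was at 133, 133 and 131 CPM in controls and 146, 143 and 144 CPM in knockdown libraries. The ranges did not overlap, but the difference was small, with a log2 fold change of 0.12 (95% interval 0.026 to 0.22, edgeR adjusted p = 0.045), under the fold threshold. Its adjusted p exceeded 0.05 in each of the 6 fits that left out 1 library. A read-through transcript on the same strand, ENSG00000272884, shares 14.5% of its annotated exon bases. CHRND, the δ subunit, was at 302, 296 and 291 CPM in controls and 324, 293 and 288 CPM in knockdown libraries, so that the groups overlapped. Its log2 fold change of 0.025 had a 95% interval of -0.073 to 0.12 (edgeR adjusted p = 0.737), which leaves room for changes smaller than the fold threshold.

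**Figure D3:**
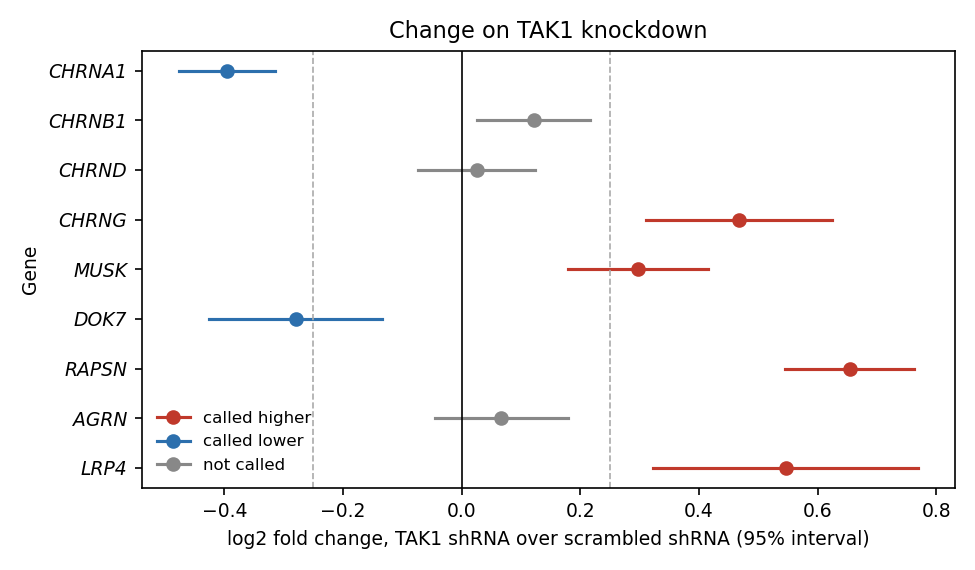
Log2 fold change of TAK1 knockdown over control cells for the 9 tested genes, with 95% intervals from edgeR as bars, red for genes called higher, blue for genes called lower and grey for genes not called. RAPSN (0.65) lies farthest to the right and CHRNA1 (-0.40) farthest to the left, and the dashed lines mark the fold threshold of 0.25 in each direction.

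Reads of 1 gene relative to another within the same library do not depend on normalization. These pairs were chosen after the members' values were seen and are given with no test. For every 100 CHRNA1 reads, control libraries held 14.7, 14.4 and 14.1 CHRNB1 reads and knockdown libraries held 20.9, 20.4 and 20.5. The corresponding CHRND values were 33.2, 31.8 and 31.5 in controls and 46.4, 41.7 and 41.0 in knockdown libraries. CHRNG stood at 6.13, 6.64 and 6.72 reads in controls and at 12.8, 12.8 and 9.85 in knockdown libraries. In each pair the knockdown libraries were all above the controls, also for CHRND, whose level itself was not called. These pairs all divide by CHRNA1 reads, which were called lower, so their rises partly restate that fall. The log2 ratio of CHRND to CHRNA1 rose by 0.42, where the log2 fold change was -0.40 for CHRNA1 and 0.025 for CHRND. Per base of transcript, CHRNA1 made up 73.2% to 73.9% of the summed subunit signal in controls and 65.1% to 67.5% in knockdown libraries, and CHRNG 2.22% to 2.46% and 3.29% to 4.22%. These shares depend on the length used, since CHRNA1 has 1984 bases in the transcript taken here and 4979 over all its annotated exons.

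**Figure D4:**
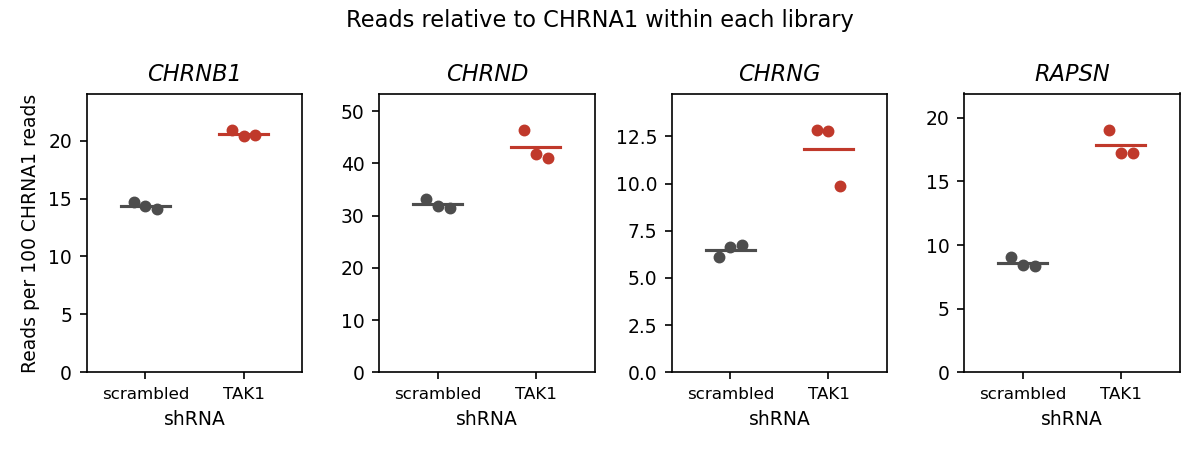
Reads of CHRNB1, CHRND, CHRNG and RAPSN per 100 CHRNA1 reads in the same library, with grey points for the 3 control libraries, red points for the 3 TAK1 knockdown libraries and a bar at each mean. All 4 ratios are higher in each knockdown library than in each control library, as for RAPSN at 8.39 to 9.03 reads in controls and 17.2 to 19.1 reads in knockdown libraries. The ratios share the denominator CHRNA1, which was called lower in knockdown cells.

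The mRNA of the scaffold protein rapsyn showed the largest log2 fold change of the 9 tested members. RAPSN (chromosome 11, 47437764 to 47449143, minus strand) was at 82.0, 78.5 and 77.7 CPM in controls and at 133, 121 and 121 CPM in knockdown libraries. The lowest knockdown library was far above the highest control. Mean RAPSN mRNA was 79.4 ± 2.27 CPM in controls and 125 ± 6.87 CPM after knockdown (SD, n = 3), and the log2 fold change was 0.65 (95% interval 0.55 to 0.76, edgeR adjusted p = 5.04e-10), and it ranked 839 of 15935 genes from the top. No other annotated gene shares its exons. Since RAPSN rose and CHRNA1 fell, the RAPSN reads per 100 CHRNA1 reads went from 9.03, 8.45 and 8.39 in controls to 19.1, 17.3 and 17.2 in knockdown libraries.

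Of the agrin receptor complex, the mRNAs of both the co-receptor and the kinase were higher. LRP4 (chromosome 11, 46856717 to 46918642) was at 7.39, 8.67 and 9.57 CPM in controls and 12.3, 12.5 and 12.6 CPM in knockdown libraries. It was the least abundant of the tested members, and its control libraries were more spread than its knockdown libraries, without overlap. LRP4 had a log2 fold change of 0.55 (95% interval 0.32 to 0.77, edgeR adjusted p = 0.0003). LRP4-AS1, on the opposite strand, covers 5.89% of its exon bases and was at 0.242 to 1.04 CPM. MUSK (chromosome 9, 110668779 to 110806558) was at 46.9, 46.0 and 46.3 CPM in controls and 56.4, 57.0 and 57.6 CPM in knockdown libraries, and each group stayed within about 1 CPM of its mean. Its log2 fold change was 0.30 with a 95% interval of 0.18 to 0.42 (edgeR adjusted p = 0.000232), so that the interval reaches below the fold threshold.

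DOK7, the adaptor of MuSK, moved the other way. It was at 56.0, 56.5 and 59.0 CPM in controls and 53.4, 42.2 and 45.9 CPM in knockdown libraries 1, 2 and 3. The groups did not overlap, but knockdown library 1 lay close to the controls. Means of 57.2 ± 1.64 and 47.2 ± 5.69 CPM (SD, n = 3) gave a log2 fold change of -0.28 (95% interval -0.43 to -0.13, edgeR adjusted p = 0.00314). Without knockdown library 2 the log2 fold change was -0.21, and with scaling by library size alone it was -0.23, both under the fold threshold. For every 100 DOK7 reads, MUSK had 83.8, 81.4 and 78.4 reads in controls and 106, 135 and 125 in knockdown libraries, a pair also chosen after its values were seen.

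AGRN encodes agrin, the ligand of the pathway, which muscle cells make in forms other than the nerve's. Its level was 302, 288 and 283 CPM in controls and 338, 293 and 284 CPM in knockdown libraries, and the groups overlapped. The log2 fold change was 0.067 with a 95% interval of -0.044 to 0.18 (edgeR adjusted p = 0.377). Gene-level counts do not separate its splice forms.

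Levels were compared between genes per kilobase of the MANE Select transcript (GENCODE 44), as CPM per kb. In controls CHRNA1 was highest at 464 ± 5.80, followed by CHRND at 100.01 ± 1.74, CHRNB1 at 51.8 ± 0.573, RAPSN at 49.0 ± 1.40, AGRN at 39.7 ± 1.34, DOK7 at 22.3 ± 0.641, CHRNG at 14.9 ± 0.916, MUSK at 5.59 ± 0.0577, LRP4 at 1.05 ± 0.135 and CHRNE at 0.0181 ± 0.00890 (SD, n = 3). Neighbours in this order had separate ranges, CHRNB1 and RAPSN the closest. In knockdown libraries RAPSN, at 77.1 ± 4.24, stood above CHRNB1, at 56.4 ± 0.619. CHRNG at 17.2 to 22.4 CPM per kb and DOK7 at 16.5 to 20.8 overlapped there, so that their order was not resolved. Divided instead by the length of all annotated exons, RAPSN at 42.3 already exceeded CHRNB1 at 30.6 CPM per kb in controls. The order of those genes therefore depends on the length used, whereas CHRNA1 and CHRND stayed the highest under both.

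Other genes of the neuromuscular synapse were taken from 7 lists with 86 genes, of which 75 were tested. Of these, 13 were called higher (17.3%) and 10 lower (13.3%), against 11.8% and 11.3% of all tested genes. Their median log2 fold change was 0.0062. Among the 19 genes of MuSK signalling, 3 were higher and 2 lower. The ubiquitin ligase gene PDZRN3, whose product promotes the degradation of MuSK, went from 18.4 ± 1.28 to 24.3 ± 1.80 CPM (SD, n = 3, log2 fold change 0.40). SRC, which encodes a kinase that phosphorylates the receptor, had a log2 fold change of 0.35. The small GTPases RAC1 and RHOA, which act on the actin cytoskeleton during receptor clustering, were at -0.27 and -0.26. Both fell short of the fold threshold when scaled by library size alone (-0.22 and -0.21), and RHOA also with upper-quartile normalization (-0.25) and without knockdown replicate 1 (-0.24).

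In the list of synaptic scaffold, basal lamina and membrane genes, 5 of 20 were higher and 3 lower. DTNA, which encodes α-dystrobrevin, rose from 7.27 ± 0.716 to 12.6 ± 0.356 CPM (SD, n = 3, log2 fold change 0.80), and the basement membrane gene NID2 had a log2 fold change of 0.68. UTRN, which encodes the synaptic dystrophin homologue utrophin, fell from 222 ± 1.55 to 134 ± 19.1 CPM (log2 fold change -0.72). ACHE, which encodes acetylcholinesterase, the enzyme that ends the signal, was at 5.63 ± 0.671 CPM in controls and 4.13 ± 0.703 CPM in knockdown libraries. Its log2 fold change of -0.45 (edgeR adjusted p = 0.029) did not pass the test without control replicate 2 (-0.35), without knockdown replicate 3 (-0.33) or when scaled by library size alone (-0.40).

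Both tested ERBB receptor genes of the neuregulin list were higher, ERBB2 at a log2 fold change of 0.33 and ERBB3 at 0.30, NRG1 was not called, and ERBB4 was too low to be tested. Among 8 tested genes for glycosylation and assembly of the receptor, 0 were higher and 1, the chaperone gene CANX, was lower at -0.30. Over all tested genes 11.8% were called higher and 11.3% lower, and 8 genes are too few to set these counts apart from those shares. DESeq2 and limma also called 0 of that list higher, and 0 had an unadjusted p under 0.05 in that direction. Of the 11 neuronal nicotinic subunits, 6 passed the filter and 0 were called in either direction by edgeR, DESeq2 or limma, with 1 at an unadjusted p under 0.05 in edgeR, toward lower levels.

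**Figure D5:**
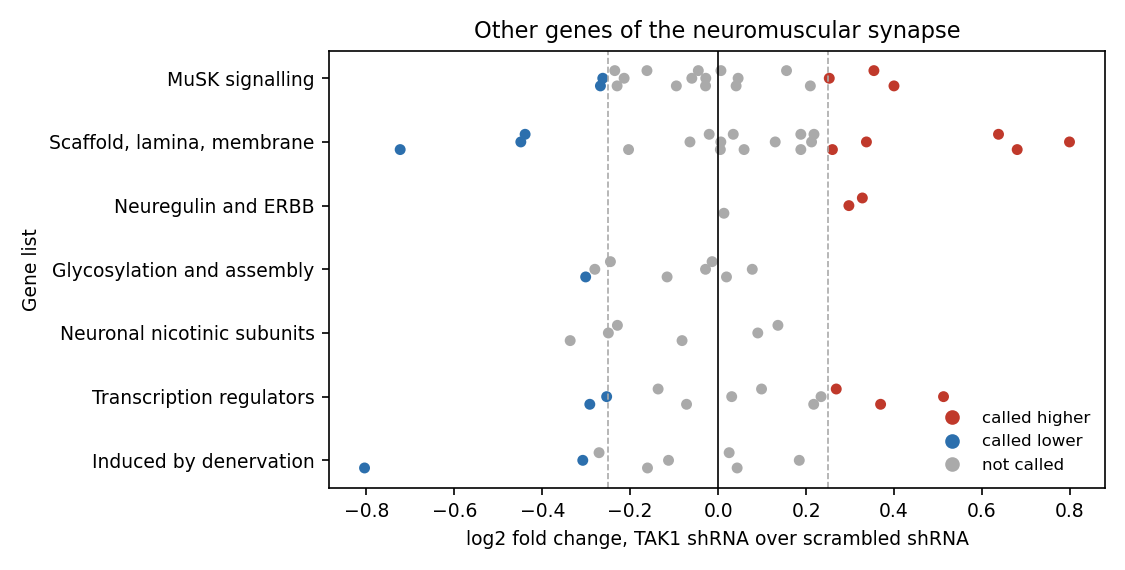
Log2 fold change of TAK1 knockdown over control cells for the 75 tested genes of the 7 lists, 1 point per gene, red for called higher, blue for called lower and grey for not called, with dashed lines at the fold threshold of 0.25. The points farthest out are DTNA at 0.80 and GADD45A at -0.80.

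Among the transcription regulators of synaptic genes, 3 of 11 tested genes were higher and 2 lower. MYOD1, whose product binds E-boxes, rose from 263 ± 8.04 to 339 ± 16.7 CPM (SD, n = 3, log2 fold change 0.37), and HDAC9, which encodes a repressor of synaptic genes, had a log2 fold change of 0.51. GABPB1, which encodes the partner of the N-box factor GABPA, was lower at -0.29, and the ETS factor gene ETV5 was lower at -0.25. ETV5 lay at the fold threshold and fell under it in 6 of the fits run with that threshold. GABPB1 lost its call without control replicate 3 (-0.26) and without knockdown replicate 1 (-0.20), and when library size alone was used for scaling (-0.24). In the list of 8 genes that denervated muscle induces, 0 were higher and 2 were lower, among them the stress gene GADD45A at -0.80. Over all tested genes 11.8% were called higher and 11.3% lower. DESeq2 and limma called 0 of the 8 higher as well, and 0 had an unadjusted p under 0.05 in that direction in edgeR. The list is not complete. It leaves out the members, 4 of them higher and 2 lower, among them CHRNG, the γ subunit of fetal and denervated muscle, higher at 0.47. MYOG, counted among the regulators and called higher at 0.27, is not in it either.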

How the data were processed

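RNA-seq of RD cells was analysed from the gene counts the authors deposited, in 3 scrambled shRNA and 3 TAK1 shRNA libraries. Per the labels and the methods, bases were called with CASAVA, poorly read and adaptor-containing reads were discarded, and poly(A)-enriched reads were mapped to GRCh38 with STAR. The counter, annotation release, strand setting and treatment of reads with several matches are not given in the sources used here. The counts are not normalized. Groups came from the sample titles.

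Groups were compared with edgeR 4.0.16 (R 4.3.3; default expression filter, trimmed mean of M-values, quasi-likelihood F test, Benjamini-Hochberg adjustment over 15935 genes), with calls where the adjusted p was below 0.05 and the log2 fold change reached 0.25 in either direction. Intervals are 95%. The test was checked on simulated data. Alternatives were DESeq2 1.42.0, limma 3.58.1, a replicate block, omission of each library, and other normalizations, filters and fold thresholds. At 28839898 to 34469323 counts per library, members other than CHRNE rest on 210 counts or more per library. Replicates of a group differed by more than sampling noise (chi-square per degree of freedom of 2.88 to 8.60). Coordinates and lengths came from GENCODE 44, and promoter windows from RefSeq.

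The members, gene lists and tests were chosen with earlier results of these data known. Every member is named. From each list all called genes are named if at most 4, otherwise the 2 highest and 2 lowest, except for an item that is not reported here.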

Additional observations from a re-analysis of the deposited data

How the results depend on the processing

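The log2 fold change of MAP3K7 ran from -1.36 to -1.28 over the fits without 1 library. RAPSN and LRP4 kept their calls under all 16 alternatives, and CHRNA1, CHRNG and MUSK under all but the fold threshold of 0.5. At that threshold 2 members were higher and 0 lower, 4 and 2 genes of the 7 lists, and 735 and 680 genes in all. With no fold threshold, 5 members were higher and 2 lower, 18 and 17 genes of the lists, and 2569 and 2734 genes in all. With scaling by library size alone 62.9% of all calls were upward, against 51% in the main fit, and 1 member (DOK7 lost its call) and 5 genes of the lists were called lower. Without 1 library, 4 members were higher in each fit and between 1 and 2 were lower, the 1 without knockdown replicate 2. Without 1 library, CHRND ran from -0.029 to 0.048, AGRN from -0.013 to 0.11, both negative without knockdown replicate 1, and the CHRNG to CHRNE log2 ratio difference from -0.061 (without knockdown replicate 3, which has 0 CHRNE reads) to 1.11. Of 272 values of list genes chosen by the naming rule under the alternatives, 244 stayed on the same side of the threshold and 28 lost it.

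The replicate numbers are not stated to pair the libraries. Deviations of same-numbered libraries from their group means correlated at 0.037, 0.036 and 0.016, and those of differently numbered libraries at -0.052 to 0.019. The replicate block gave 4 members higher and 2 lower, 1942 and 1848 genes in all, a log2 fold change of MAP3K7 of -1.30, and a CHRNG to CHRNE difference of 0.68 (exact sign-flip permutation p = 0.5). Depth limited CHRNE, at 0 to 3 reads per library, and 3 libraries per group limit the precision of every comparison.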

Other observations

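RAPSN had the largest absolute log2 fold change of the members. Among 13476 other tested genes whose mean reached 1 CPM, the 3 whose log2 CPM followed RAPSN most closely over the 6 libraries were LGALS3BP, DYNLRB1 and TM7SF2, with Pearson correlations of 0.9997, 0.9996 and 0.9993. Their log2 fold changes were 0.58, 0.95 and 0.46. The points share the same 2 groups and libraries, so any gene that differs between the groups with little spread reaches a high value, and the correlations are given as a description.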
